A study of Mus musculus with 2 samples.

Results

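A panel of 10 enteric neurotransmitter and neuropeptide genes, not all specific to enteric neurons, was followed in intestine from B6NCrl mice at embryonic day 16.5. Of these, 4 encode transmitter enzymes (Nos1, Chat, Th and Dbh) and 6 encode neuropeptide precursors (Penk, Cartpt, Vip, Gal, Tac1 and Npy). They were taken by symbol, with no measured value used, and all 10 were found among 21474 protein-coding genes in tables of 69691 features each. The series holds 2 total RNA libraries of 1 group, called replicate 1 and replicate 2, each from its own pool of intestines from healthy embryos of mixed sex. In the labels the pools are distinct biosamples that share a donor identifier. The pool of replicate 2 combined 41 embryos, and the sources used here give no such number for replicate 1. There is no second condition, so the comparisons below are between genes and between the 2 pools, and any spread between the pools may be technical.

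The enteric nervous system is the network of neurons and glia that lies within the gut wall and drives its movements and secretion. Its motor neurons are commonly sorted by transmitter, with acetylcholine and tachykinins on the excitatory side and nitric oxide and vasoactive intestinal peptide on the inhibitory side, while catecholamines in the adult gut come largely from sympathetic nerves whose cell bodies lie outside it. Neuropeptides are cut out of longer precursors in secretory granules, and several of the same peptides are also made by hormone cells of the gut epithelium and of the pancreas.

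The libraries held 42040766 and 41480301 expected counts in replicates 1 and 2, of which the 10 genes took 3522 and 3285. Levels are given in TPM, a measure of abundance per transcript length that is scaled to the same total in each library. Broad neuronal genes were present: 14 of 15 enteric neuron markers were detected, that is at 1 TPM or more in each library, led by Uchl1 at 65.5 and 60.1 TPM, Gap43 at 47.4 and 41.9 and Stmn2 at 46.3 and 40.3, with the RNA-binding protein gene Elavl3 lowest at 1.11 and 0.94. Enteric glia markers were detected in 6 of 7 cases, led by Ednrb at 99.6 and 94.4 TPM, Fabp7 at 31.2 and 28.0 and Erbb3 at 25.3 and 29.8, with Gfap lowest at 0.32 and 0.07. Of 7 markers of the central nervous system, 6 were at 0 to 2 counts in each library.

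Per transcript length, the neuropeptide precursors stood above the transmitter enzymes in both libraries. All 6 precursors were detected, against 1 of 4 enzymes, Th, so that 7 of the 10 genes passed, beside 62.0% of all protein-coding genes. The precursors summed to 102.78 TPM in replicate 1 and 101.0 TPM in replicate 2, which was 94.9% and 96.0% of the 10 genes' TPM, and the enzymes summed to 5.58 and 4.16 TPM. The groups did not overlap, with the lowest precursor value at 4.20 TPM (Npy) and the highest enzyme value at 2.81 TPM (Th). Without division by length they did overlap, since Npy had 76 and 56 counts and Nos1 had 224 in each library. The median of the 10 genes' mean levels was 9.83 TPM, beside 4.47 TPM for all protein-coding genes. In whole tissue, fewer cells of a type and less RNA per cell cannot be told apart, and the level of a transcript is not that of its transmitter.

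**Figure D1:**
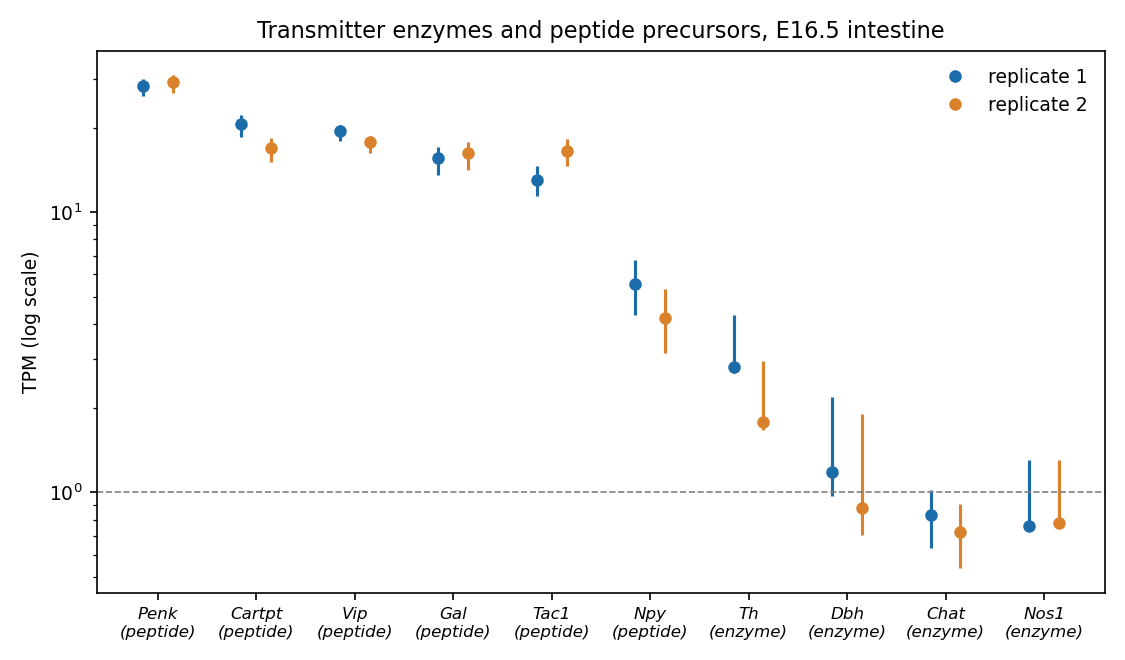
TPM (log axis) of the 4 transmitter enzyme genes and 6 neuropeptide precursor genes in the 2 libraries, in the order of their mean level. Points are the deposited TPM, vertical lines the deposited intervals, and the dashed line is a TPM of 1. Penk is highest at 28.3 and 29.2 TPM, and Nos1 and Chat are lowest, between 0.72 and 0.83, with the Nos1 point of replicate 1 just under its own interval.

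Penk, the precursor of the enkephalins, was the highest of the 10 (ENSMUSG00000045573.9; mm10 chromosome 4, 4133531 to 4138819, minus strand). It read 28.33 TPM in replicate 1 and 29.17 TPM in replicate 2, from 995 and 1006 expected counts, and its mean of 28.8 ± 0.594 TPM (SD, n = 2) lay above that of 77.2% of protein-coding genes. Its coding sequence repeats the 5 codons of a short opioid peptide 7 times, 6 with the Met-enkephalin sequence and 1 with that of Leu-enkephalin. In 5 of the 7 copies, pairs of lysine or arginine codons, the usual cutting sites of precursor processing, lie on both sides. Copies 4 and 7 lack such a pair after the last enkephalin codon, so cutting at pairs alone would not end the peptide there. The copies are shown because they say which of these sequences each Penk transcript holds. They come from the GENCODE M21 transcript Penk-201 on mm10, 5′ to 3′ on the minus strand. Capitals mark the 5 enkephalin codons, and the pairs of codons around them are in lower case.
Copy 1, Met, chr4:4134328-4134354: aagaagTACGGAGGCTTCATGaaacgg
Copy 2, Met, chr4:4134307-4134333: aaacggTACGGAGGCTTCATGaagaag
Copy 3, Met, chr4:4134220-4134246: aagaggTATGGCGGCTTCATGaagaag
Copy 4, Met, chr4:4134067-4134093: aagaggTATGGGGGCTTCATGagaagc
Copy 5, Met, chr4:4133995-4134021: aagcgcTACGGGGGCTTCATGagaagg
Copy 6, Leu, chr4:4133935-4133961: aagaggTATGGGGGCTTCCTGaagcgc
Copy 7, Met, chr4:4133842-4133868: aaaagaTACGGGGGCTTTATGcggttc

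Penk has 2 annotated transcripts, and the full-length Penk-201 took 78.5% of its TPM in replicate 1 and 80.4% in replicate 2. Penk-202, an incomplete model of 721 nt that stops within the coding sequence, took 21.5% and 19.6%. It holds the first 3 copies listed above, all of them Met-enkephalin, and its model ends before the Leu-enkephalin copy. The Penk-202 model also begins with an exon of 185 bases that Penk-201 lacks. A gene on the opposite strand, A830012C17Rik, overlaps Penk by 499 bases and had 11.0 and 15.1 counts. The sources used here do not say whether libraries kept strand. Because the Penk-202 model is truncated, its share describes how reads were assigned and does not by itself show a shorter peptide precursor. What the share reflects was not tested.

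Cartpt, Vip and Gal followed Penk within a narrow band. Cartpt, the precursor of the peptide called cocaine and amphetamine regulated transcript (ENSMUSG00000021647.6; chromosome 13, 99898489 to 99901091), read 20.7 TPM in replicate 1 and 16.98 TPM in replicate 2, from 472 and 376 counts. Vip, which encodes vasoactive intestinal peptide, a relaxant of gut muscle and a stimulant of secretion (ENSMUSG00000019772.4; chromosome 10, 5639218 to 5647617), read 19.54 TPM in replicate 1 and 17.82 TPM in replicate 2. Gal, the precursor of galanin (ENSMUSG00000024907.6; chromosome 19, 3409915 to 3414544), read 15.64 TPM in replicate 1 and 16.27 TPM in replicate 2. The means were 18.8 ± 2.63 for Cartpt, 18.7 ± 1.22 for Vip and 15.96 ± 0.445 TPM for Gal (SD, n = 2 each), so the order of Cartpt and Vip differed between the libraries.

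Tac1 (ENSMUSG00000061762.8; chromosome 6, 7554879 to 7565834) encodes the tachykinins substance P and neurokinin A, which excite gut muscle. It read 13.04 TPM in replicate 1 and 16.56 TPM in replicate 2, from 358 and 405 counts, a mean of 14.8 ± 2.49 TPM. Of the 6 precursors it was the only one with its higher value in replicate 2 by more than 0.1 on the log2 scale. Npy, the precursor of neuropeptide Y, was the lowest precursor (ENSMUSG00000029819.6; chromosome 6, 49822710 to 49829507). It read 5.53 TPM in replicate 1 and 4.20 TPM in replicate 2, from 76 and 56 counts on a transcript of 566 nt, and it lay above 50.9% of protein-coding genes.

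Among the enzymes, Th stood first. Th encodes tyrosine hydroxylase, the rate-limiting enzyme of catecholamine synthesis (ENSMUSG00000000214.6; chromosome 7, 142892752 to 142931128), and it read 2.81 TPM in replicate 1 and 1.78 TPM in replicate 2. These rest on 143 and 88 counts, with exact 95% Poisson intervals of 121 to 168 and 70.6 to 108 that cover counting error only. The SD was 31.7% of the mean, the largest relative spread of the 10 genes. Dbh, which turns dopamine into noradrenaline (ENSMUSG00000000889.8; chromosome 2, 27165233 to 27183200), read 1.18 TPM in replicate 1 and 0.88 TPM in replicate 2, from 85 and 62 counts, and so missed detection through replicate 2 alone.

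Chat and Nos1, the enzymes of the main excitatory and inhibitory motor neurons, were the lowest of the 10. Chat, which makes acetylcholine (ENSMUSG00000021919.7; chromosome 14, 32408203 to 32465989), read 0.83 TPM in replicate 1 and 0.72 TPM in replicate 2, from 66 counts (interval 51.0 to 84.0) and 56 counts (42.3 to 72.7). Nos1, the neuronal nitric oxide synthase (ENSMUSG00000029361.14; chromosome 5, 117781032 to 117958840), read 0.76 TPM in replicate 1 and 0.78 TPM in replicate 2. Its 224 counts in each library exceeded those of Th, Dbh and Chat, but they spread over a transcript of 10123 nt. The Nos1 value of replicate 1 lay under its own deposited interval of 0.772 to 1.31 TPM. The deposited posterior means, a second estimate of the same level, gave Nos1 1.03 TPM, Dbh 1.34 and Chat 0.77 on average over the libraries, and by that estimate 9 of the 10 genes were detected, all but Chat.

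Neighbours in the order of levels were called apart where their values did not overlap and the mean log2 ratio exceeded 3 SD of the 2 libraries. Of the 9 steps, 3 met this rule. Tac1 stood 3.05-fold above Npy, Npy 2.15-fold above Th and Th 2.19-fold above Dbh, although the deposited intervals of Th and Dbh overlapped in replicate 2. Penk exceeded Cartpt in both libraries by a log2 ratio of 0.62 ± 0.23, which missed the rule although their deposited intervals were apart in both, and the steps from Cartpt through Vip and Gal to Tac1 were smaller. Dbh, Chat and Nos1 could not be ordered. The 10 genes thus fell into a group of 5 precursors between 13.0 and 29.2 TPM, then Npy, then Th, and then 3 enzymes between 0.72 and 1.18 TPM. No p-value is given, since the smallest exact sign-flip p with 2 libraries is 0.5.

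The cholinergic genes other than Chat were all detected, 5 of 5. The vesicular acetylcholine transporter gene Slc18a3 lies inside the Chat gene on the same strand (chromosome 14, 32462438 to 32464850), and read far above it. Chat had 0.83 and 0.72 TPM and Slc18a3 had 7.33 and 6.37 TPM in replicates 1 and 2, so Slc18a3 stood 8.84-fold above Chat, with a log2 ratio of Chat to Slc18a3 of -3.14 in both libraries. The high-affinity choline transporter gene Slc5a7 read 1.83 TPM in each library, also above Chat. Ache, which breaks acetylcholine down, read 7.67 and 7.96 TPM, the related esterase Bche 5.90 and 6.94, and the broadly expressed choline transporter Slc44a1 14.7 and 18.7. An antisense gene, Gm2990, overlaps Chat by 948 bases and had 38 and 35 counts. The sources used here do not say whether libraries kept strand, so reads of overlapping genes may not be separable. Strand could not tell Slc18a3 from Chat in any case, since both lie on the same strand, and how far they share reads was not tested.

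On the receiving side of the cholinergic system, 5 of 8 muscarinic and ganglionic nicotinic receptor genes were detected. The muscarinic receptor gene Chrm2, prominent in gut muscle, led at 12.4 and 12.7 TPM, and the ganglionic nicotinic subunits Chrna3 and Chrnb4 followed at 9.72 and 10.2 and at 4.70 and 4.34. Chrna5 was lowest at 0.15 and 0.36 TPM. Chrna3 and Chrnb4, whose products join to form the ganglionic receptor, thus read above Chat itself in both libraries.

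The nitric oxide pathway likewise combined a low enzyme with higher targets. Of 7 receptor and effector genes, 6 were detected. The subunits of soluble guanylyl cyclase, the nitric oxide receptor, led with Gucy1b1 at 50.6 and 46.8 TPM and Gucy1a1 at 33.2 and 33.1, followed by Mrvi1, a substrate of the kinase that responds to cyclic GMP, at 10.2 and 11.1. The alternative subunit Gucy1a2 was lowest at 0.53 and 0.49 TPM. Chat over Nos1 gave a log2 ratio of 0.01 ± 0.17 (SD, n = 2), so the enzymes of the opposed motor classes did not differ beyond their spread. By posterior mean that ratio was -0.42, and in counts without length -1.88, with Nos1 the higher.

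Catecholamine genes other than Th and Dbh were detected in 10 of 13 cases. Th over Ddc, the next enzyme of the path, gave 2.81 and 1.78 TPM for Th and 37.7 and 38.1 TPM for Ddc, a 16.9-fold distance with a log2 ratio of -4.08 ± 0.48. Ddc also serves serotonin synthesis, and its levels are not specific to catecholamine cells. The highest members were Qdpr at 282 and 319 TPM, which recycles the cofactor of the hydroxylases, and the degrading enzyme Maob at 165 and 223, both broadly expressed genes. At the other end, Pnmt, which makes adrenaline, had 4 counts in replicate 1 and 1 in replicate 2. Th over Dbh gave a log2 ratio of 1.13 ± 0.17, and Npy, a partner of noradrenaline in sympathetic nerves, stood 4.73-fold above Dbh. In counts without length the ratio of Npy to Dbh turned to -0.15, with Npy measured on 566 nt and Dbh on 2552 nt.

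Genes of other classical transmitters were mostly under 1 TPM. Of 9 serotonin, GABA and glutamate genes, 2 were detected, the serotonin transporter Slc6a4 at 20.8 and 24.0 TPM and Tph1 at 2.22 and 2.18. Tph1 is the serotonin-making enzyme of the gut epithelium, while Tph2, the neuronal form, had 0 and 1 counts. The vesicular transporters Slc17a8 at 0.11 and 0.19 TPM, Slc17a6 at 0.10 and 0.11 and Slc17a7 with 0 and 9 counts were all under 0.2 TPM. Gad2 and Slc32a1, of the GABA system, had 0 counts in replicate 1 and 1 in replicate 2 each.

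**Figure D2:**
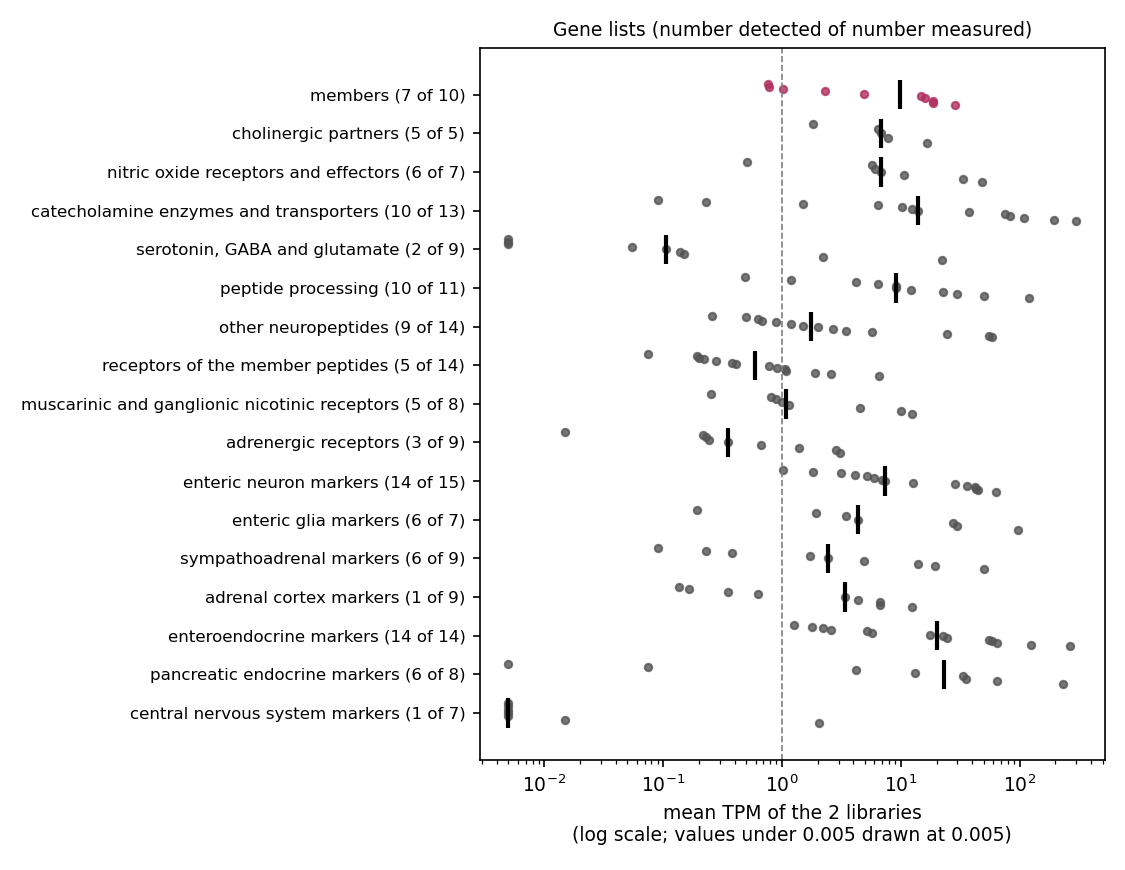
Mean TPM of the 2 libraries (log axis) for the 10 transmitter and peptide genes, called members and drawn in red, and for genes of 16 related lists. Each point is a gene, the black bar is the median of the list, the dashed line is a TPM of 1, and the numbers give genes detected of genes measured. The 10 genes have a median of 9.83 TPM, above the 0.598 of the receptors for their own peptides.

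The machinery that cuts and stores peptides was present, with 10 of 11 genes detected. Cpe, the carboxypeptidase that trims cut peptides, read 117 and 123 TPM, the granule protein Chgb 51.3 and 48.8, and Pam, which amidates peptide ends, 26.3 and 32.9, whereas Vgf was lowest at 0.43 and 0.54. Of 14 other neuropeptide genes, 9 were detected. Their highest members were Cck at 56.3 and 60.4 TPM, Pyy at 53.8 and 57.2 and Sst at 22.0 and 27.4, all hormones of the gut epithelium as well, and Nmu was lowest at 0.23 and 0.29. Only Cck and Pyy of that list read above Penk in both libraries.

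Receptors were listed for 5 of the 6 precursors, all but Cartpt, and 5 of the 14 measured were detected. Each set of receptors, as far as measured, summed to less than its own precursor. The galanin set lacks Galr3, which was not analysed. Vipr1 and Vipr2, the receptors of vasoactive intestinal peptide, were the highest pair at 5.78 and 7.32 and at 2.82 and 2.38 TPM, and summed to a mean of 9.15 TPM beside 18.7 TPM for Vip. The opioid receptor gene Oprk1, whose product chiefly binds dynorphins, came next at 2.01 and 1.77. Oprm1 and Oprd1, which encode the main enkephalin receptors, read 0.20 and 0.24 and 0.19 and 0.21 TPM, beside a mean of 28.8 TPM for Penk. By posterior mean Oprm1 was 1.44 and 1.56 TPM. The 3 tachykinin receptors summed to 1.97 TPM beside 14.8 for Tac1, and the 4 neuropeptide Y receptors to 2.59 TPM beside 4.87 for Npy, of which Npy2r and Npy1r were at or just over the detection threshold. Galr1 and Galr2 summed to 0.61 TPM beside 15.96 TPM for Gal, and Npy5r was the lowest of the list at 0.09 and 0.06. Adrenergic receptors were detected in 3 of 9 cases, with Adrb3 highest at 2.74 and 3.43 TPM, Adra2b at 1.67 and 1.09, and Adra2c lowest at 2 counts and 1 count.

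Among pairs of the 10 genes, Tac1 lay under Penk with a log2 ratio of -0.97 ± 0.21, Npy under Vip with -1.95 ± 0.19, and Cartpt over Npy with 1.96 ± 0.08, all apart by the rule given for neighbours. Tac1 over Vip, excitatory against inhibitory peptide, gave -0.34 ± 0.34 and was not apart, nor was Gal over Vip at -0.23 ± 0.13. Of all 10 pairs compared, partners from outside the list included, 7 were apart.

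Hormone cells are another place where these peptides can be made, and their markers were abundant. All 14 enteroendocrine markers were detected, led by Sct at 254 and 279 TPM, Ghrl at 122 and 127 and Gcg at 57.1 and 72.9, with Pax6 lowest at 1.51 and 1.04. Their summed level was 622 TPM in replicate 1 and 685 TPM in replicate 2, and that of the 15 enteric neuron markers was 322 and 289 TPM. Pancreatic endocrine markers were detected in 6 of 8 cases, led by Ins2 at 202 and 263 TPM, Gcg and Ins1 at 30.7 and 39.5, while Mafa had no count. What part of Penk, Cartpt, Vip, Gal, Tac1 or Npy comes from neurons, from hormone cells or from other cells of the tissue was not tested.

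Tac1 was the only one of the 5 genes with several annotated transcripts to change its leading transcript between the libraries. Its primary transcript is spliced so that all major forms keep substance P, while neurokinin A is carried by exon 6 and may be left out. The sequences below come from GENCODE M21 transcripts on mm10, plus strand, 5′ to 3′, and are shown because they decide what each form encodes. Capitals mark the last 5 codons of each tachykinin, which carry its shared ending.
Substance P, in every form shown, chr6:7556732-7556764: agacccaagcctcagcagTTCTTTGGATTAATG
Exon 4, absent from Tac1-203, chr6:7557216-7557260: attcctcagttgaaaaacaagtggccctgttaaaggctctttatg
Exon 6 with neurokinin A, absent from Tac1-201, chr6:7559099-7559152: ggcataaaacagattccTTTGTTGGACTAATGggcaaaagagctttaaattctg

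Tac1-205, which holds all 7 exons and so both peptides, took 52.3% of Tac1 TPM in replicate 1 and 32.5% in replicate 2. Tac1-203, which lacks exon 4 but keeps both peptides, took 27.1% and 36.7%, and Tac1-201, which lacks exon 6 and keeps substance P alone, took 20.6% and 30.9%. The major form was thus Tac1-205 in replicate 1 and Tac1-203 in replicate 2. Summed over forms, transcripts with both peptides held 79.4% and 69.1%, a mean of 74.3% ± 7.28 (SD, n = 2), and the form with substance P alone held 25.7% ± 7.28. In both libraries most Tac1 RNA was thus assigned to forms that encode neurokinin A as well as substance P. The forms share most of their sequence, so the shares rest on the few reads that tell them apart out of 358 and 405 counts.

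**Figure D3:**
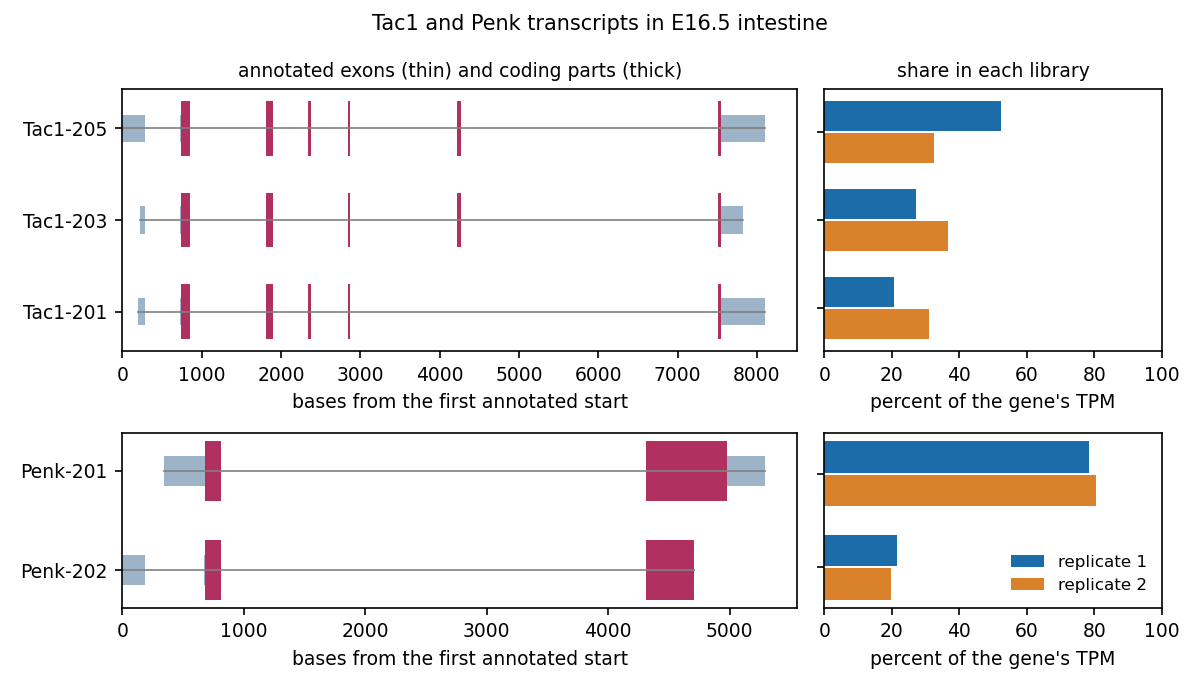
Left, annotated exons (thin) and coding parts (thick) of the 3 Tac1 transcripts with reads and the 2 Penk transcripts, in bases from the first start among the transcripts drawn. Right, each transcript's percent of its gene's TPM in replicates 1 and 2: Tac1-205 holds 52.3% and 32.5%, and Penk-201 holds 78.5% and 80.4%.

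Of the 10 genes, 5 had 1 annotated transcript and 5 had more. In 4 of these 5, all but Tac1, the leading transcript was the same in both libraries, beside 89.6% of 11041 protein-coding genes with several transcripts. Nos1-206, of 10123 nt, held 98.5% and 100% of Nos1, Th-201 held 100% of Th and Dbh-201 held 100% of Dbh in both libraries. By posterior mean all 3 shares were lower, in replicates 1 and 2. Nos1-206 held 72.05% and 73.93%, Th-201 held 68.9% and 64.6%, and Dbh-201 held 78.8% and 73.1%.

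None of the 10 genes was called different between the 2 pools. A gene was called different where its mean count was at least 10, the ratio of TPM + 0.1 was at least 2-fold either way and the deposited intervals did not overlap, and 0 of the 10 met this, beside 1.10% of 15500 protein-coding genes. This count has no replicate check, with 1 library on each side. The log2 ratios of replicate 1 over replicate 2 ran from -0.34 for Tac1 to 0.63 for Th, 6 of 10 were above 0, and their median was 0.16, beside 0.01 for all genes tested. Whatever its sign, the median size of the ratio was 0.23 for the 10 genes and 0.13 for all genes tested. Of the enteric neuron markers, 10 of 15 were higher in replicate 1, with a median of 0.18. Less that median, the ratios of the 10 genes ran from -0.52 for Tac1 to 0.45 for Th. The Tac1 ratio depended on the measure. It was -0.23 in counts scaled by edgeR factors and -0.23 with DESeq2 size factors, which use no transcript length. The mean length assigned to Tac1 was 1032 nt in replicate 1 and 955 nt in replicate 2.

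**Figure D4:**
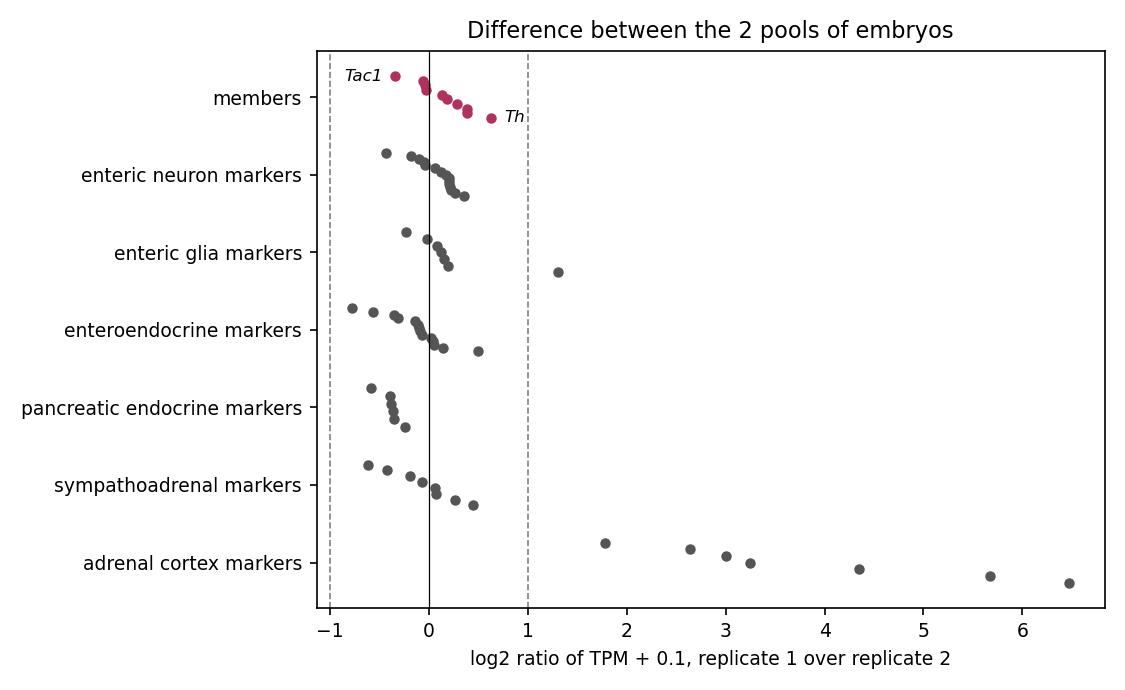
Log2 ratio of TPM + 0.1, replicate 1 over replicate 2, for the 10 transmitter and peptide genes (members, red) and for markers of 6 cell types, each point a gene with a mean count of at least 10. The dashed lines mark 2-fold either way. The 10 genes lie between -0.34 (Tac1) and 0.63 (Th), while all 7 tested adrenal cortex genes lie above 1, as does Gfap among glia markers, whose intervals overlap.

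Th, Npy and Dbh had the 3 largest ratios, at 0.63, 0.39 and 0.39, each higher in replicate 1. For each of them the deposited TPM intervals of the 2 libraries overlapped. The Poisson intervals of their counts also overlapped for Npy and Dbh, but not for Th. Markers of the adrenal cortex were higher in replicate 1 as well, by far larger ratios. All 7 tested of 9 were called higher in replicate 1, with a summed level of 62.6 TPM in replicate 1 and 6.97 TPM in replicate 2. Cyp11a1, the first enzyme of steroid synthesis, read 19.2 and 5.51 TPM, Cyp21a1 13.2 and 0.05, Hsd3b1 13.0 and 0.54, Cyp11b1 8.60 and 0.07, Star 6.26 and 0.57, and the cortical regulator Nr5a1 1.15 and 0.10. The hormone receptor gene Mc2r had 30 and 0 counts, and Cyp17a1, at 0.14 and 0.13 TPM, was lowest. Markers of sympathetic neurons and chromaffin cells summed to 92.3 and 93.8 TPM, with 4 of 8 tested higher in each library and none called. Most of that sum came from Chgb at 51.3 and 48.8 TPM, a general granule gene, Hand1 at 19.7 and 18.8 and Slc18a1 at 11.0 and 16.9. Slc6a2, the noradrenaline transporter, read 0.26 and 0.20 TPM, and Pnmt, which defines chromaffin cells that make adrenaline, had 4 and 1 counts. What part adrenal or sympathetic tissue plays in the levels of Th, Dbh and Npy was not tested.

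Slc6a3, the dopamine transporter, was the only catecholamine gene called, at 0.92 TPM in replicate 1 and 2.07 TPM in replicate 2, opposite in direction to Th and Dbh. The tested pancreatic endocrine markers were all higher in replicate 2, 6 of 6, with a median log2 ratio of -0.37 and none called, the direction that Tac1 also had. Enteroendocrine markers had a median of -0.09, with 9 of 14 higher in replicate 2. The part of these cells in the Tac1 ratio was not tested.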

How the data were processed

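Total RNA over 200 nt from whole intestine at embryonic day 16.5 was sequenced in 2 libraries of 10 ng input, each with a table of genes and one of transcripts. Per the file headers and the deposited text, features follow GENCODE M4 on mm10; no aligner or quantifier, nor any version, is given in the sources used here. The authors deposited expected counts (estimated reads, not normalized), TPM (per effective length, scaled to 1 total per library), FPKM, the percent of each gene's TPM held by each transcript, posterior means, and TPM intervals of unstated level. Columns of samples outside the series numbered 0.

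Symbols and coordinates came from GENCODE M21 (mm10), and Gucy1a3 and Gucy1b3 were matched through RefSeq synonyms as Gucy1a1 and Gucy1b1. Galr3 was not analysed here. Sequences were read from GENCODE M21 transcripts. Of the 42040766 and 41480301 expected counts, 98.0% and 98.1% fell on named genes and 1.81% and 1.74% on spike-ins; Poisson intervals cover counting error only.

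Levels are the mean and SD of 2 libraries, with no test. The pool ratio used TPM + 0.1, was computed for all protein-coding genes, and was tested on simulated data. Expected counts were rounded to whole numbers for the size factors of edgeR 4.0.16 and DESeq2 1.42.0 (R 4.3.3); other steps used Python 3.11.15, numpy 2.4.6, pandas 2.3.3, scipy 1.17.1 and matplotlib 3.10.9. The genes, lists and pairs were chosen from known roles, with earlier results of these data known. The text names all 10 genes, pair genes, all members of lists of up to 6 genes, and otherwise the 3 highest, the lowest and those called between pools; others it names were chosen after their values were seen, and some genes that fall under it are not reported here. Likeness of pattern was not computed, since 2 libraries of 1 group leave 1 ratio per gene. Alternatives were posterior means, FPKM, counts without length, other pseudocounts, filters, folds and normalizations, and each library left out.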

Additional observations from a re-analysis of the deposited data

How the results depend on the processing

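No paired analysis was possible because the series has a single group. Of the 10 genes, 7 were detected in TPM and FPKM, 9 by posterior mean, 10 at a TPM of at least 0.5 and 6 at 2; leaving out each library gave 7 to 8. Their median level, 9.83 TPM, was 6.82 in FPKM and 9.29 to 10.2 with a library left out. Of neighbours, 3 were apart by posterior mean too, an alternative chosen after seeing the data; FPKM, chosen likewise, keeps ratios between genes as in TPM and so is no check on them. None of the 10 was called between pools with other normalizations, posterior means, pseudocounts or 1.5-fold; of these, the 5 settings that alter the ratio left 6 higher in replicate 1. By contrast, the 171 genes called of all protein-coding genes became 85 with a pseudocount of 1, 104 with a mean count of at least 100 and 418 at 1.5-fold, for which the cause was not tested beyond the rule itself. Of the 10 pairs, 7 were apart by TPM and posterior mean and 10 in expected counts without length, where Npy over Dbh was -0.15 in log2, against 2.24 in TPM. With 1 library left, neighbours, pairs and pools cannot be called. Low counts limit Chat, Dbh, Npy and Th, with 56 to 143 counts each.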
